A study of Rattus norvegicus with 12 samples.

Results

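The genes of the translation machinery were examined in embryonic rat testis: the initiation factors (symbols Eif and a number), the elongation factors (Eef and a number), and the aminoacyl-tRNA synthetases with their scaffold proteins. A probe set, the group of array oligonucleotides read as 1 value, belonged to the set if its only annotated symbol was of the Eif or Eef kind, or was 1 capital letter followed by ars1 or ars2, or was Eprs1, Aimp1 or Aimp2. The Y-linked Eif2s3y, pseudogenes and probe sets annotated to several symbols were left out, and with them Eif3e and Eif5, which had no probe set of their own. This gave 143 probe sets of 92 genes, out of 31042 probe sets and 14224 genes on the array. They comprised 74 probe sets of 48 initiation genes, 18 of 11 elongation genes and 51 of 33 synthetase genes. The split followed the symbol, so Eif4enif1, a transporter of eIF4E, counted with initiation, and Eef1e1, a protein of the synthetase scaffold, counted with elongation.

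Testes of male embryos were taken at embryonic day 16 in the vinclozolin and the control lineage of 3 generations, with 2 arrays in each of the 6 groups. In the vinclozolin lineage, founder females were injected intraperitoneally with vinclozolin, a fungicide with anti-androgenic metabolites, at 100 mg/kg/day from day 8 to day 14 of pregnancy. In the control lineage they received the vehicle, sesame oil and DMSO, over the same days. F1 embryos were carried by the injected females themselves, F2 embryos came from mating F1 animals, and F3 embryos from a further mating. In the vinclozolin lineage too, the protocols name control lines as the source of the mated F1 animals; the grouping here is that of the sample titles. Each RNA was a pool of about 10 testes, and nothing in the labels tied a pool to a litter, so the p-values below measure the spread between pools. The question was whether testis gene expression differed between the lineages in each generation.

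Translation starts when eIF2 brings the initiator methionyl-tRNA to the small ribosomal subunit, eIF3 organises the complex, and eIF4F (the cap-binding eIF4E, the scaffold eIF4G and the helicase eIF4A) recruits the mRNA. Elongation factors then deliver aminoacyl-tRNAs (eEF1) and move the ribosome along (eEF2), and each tRNA is charged with its amino acid by a synthetase specific for it. The integrated stress response slows initiation by phosphorylating eIF2 and, through the transcription factor Atf4, raises the transcription of many cytosolic synthetases in mammalian cells. Every cell type of the fetal testis needs these proteins, so they mark no single one.

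The signals carried a difference between the lineages in array quality, whose part in the results below cannot be told apart from that of the lineage. The signal of the 5′ probe set of beta-actin over that of its 3′ probe set, a measure of how far RNA or labelled copies extend to the 5′ end, was 0.260 ± 0.0971 on vinclozolin arrays and 0.453 ± 0.0177 on control arrays (SD, n = 6 each). The highest vinclozolin array, at 0.395, lay below the lowest control array, at 0.423 (2-sided p = 0.00216 by exact permutation over all splits of the arrays, and 0.00325 after adjustment for 3 measures). By generation the ratio was 0.171, 0.233 and 0.378 on F1, F2 and F3 vinclozolin arrays, against 0.459, 0.447 and 0.453 on the controls of the same generations. The Gapdh ratio was 0.814 ± 0.150 on vinclozolin arrays and 0.986 ± 0.0224 on control arrays (exact permutation test, 2-sided p = 0.0411), and the array medians differed by -0.0952 on the log2 scale, vinclozolin minus control. Replicate pools also differed more in the vinclozolin lineage: the typical SD of a member between the 2 arrays was 0.217, 0.191 and 0.141 log2 units in F1, F2 and F3 vinclozolin, against 0.120, 0.105 and 0.0922 in the controls. Markers of Leydig and Sertoli cells were present on every array. Leydig cell markers (Star, Cyp11a1, Cyp17a1, Hsd3b1, Insl3 and Hsd17b3) summed to 12592.4 to 15064.3 on vinclozolin arrays and 11688.8 to 12420.5 on control arrays. Sertoli markers (Amh, Dhh, Inha, Wt1, Gata4) summed to 5266.2 to 6510.9 on vinclozolin arrays and 6118.8 to 6448.3 on control arrays. Erythroid markers summed to 6976.6 to 9303.7 on vinclozolin arrays and 5420.3 to 6304.5 on control arrays. Kit, the only germ cell marker with a probe set of its own, read 2.5 to 61.4 on vinclozolin arrays and 61.9 to 80.1 on control arrays. In such bulk tissue, fewer cells of a type and less RNA per cell cannot be told apart, and the part of these markers in the results was not tested.

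Of the 143 probe sets, 136 passed the filter on dim signals, covering 91 of the 92 genes. The 7 left out never exceeded a signal of 21.4 on any array; they included both probe sets of Eef1a2, the eEF1A form of muscle and neurons, which therefore has no tested value. The others were 1 each of Eif4e, Eif4g3, Eef2, Eef2k and Eprs1, genes with brighter probe sets that were tested.

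Among the tested members, 42 of 136 (30.9%) differed between the lineages in F1, where 23.1% of all probe sets did. Of these, 15 were higher in the vinclozolin lineage (9.41% of all probe sets were) and 27 lower (13.7% of all). In F2 there were 32 (23.5%, against 14.3% of all), 7 of them higher (4.7% of all) and 25 lower (9.65% of all). In F3 there were 4 (2.94%, against 3.11% of all), 0 higher by limma (12 at an unadjusted p under 0.05; 1.05% of all were called higher) and 4 lower (2.06% of all). The F3 counts moved with the spread that was assumed: array weights gave 11 higher and 20 lower (22.8%, against 12.5% of all), and the 4 F3 arrays alone 10 and 17 (19.9%, against 10.4% of all). Leaving out either F1 vinclozolin array raised the F3 calls among the members and among all probe sets. The median F3 difference of the members stayed at -0.02. In the mean of the 3 differences there were 65 (47.8%, against 33.3% of all), 31 higher (14.1% of all) and 34 lower (19.2% of all). All 6 vinclozolin arrays lay above all 6 control arrays in 14 members (5.52% of all probe sets) and below them in 20 (7.73% of all). The median member did not share this tilt: the median log2 difference was 0.05, -0.01 and -0.02 in F1, F2 and F3, beside -0.01, -0.01 and -0.01 over all probe sets. In the plot of differences by gene group most members lay near 0, and a tail reached down to -2.94. The split between higher and lower calls moved with the scaling. After centring each array on its median it was 37 higher and 21 lower in F1, 23 and 21 in F2 and 48 and 23 in the mean. These were 42.6%, 32.4% and 52.2% of the members, against 27%, 18.8% and 38.3% of all probe sets. After cyclic loess the split was 19 higher and 39 lower in the mean (42.6%, against 32.5% of all). Centring moved the median of all probe sets to 0.10 in F1 and 0.11 in F2. With the log2 beta-actin ratio as a covariate, limma called 0 members in F1, F2 and the mean (14, 30 and 18 had an unadjusted p under 0.05) and 2 in F3. Of all probe sets it called 0% in F1, F2 and the mean, and 1.14% in F3. In that fit the median standard error of a member's F1 difference was 0.493, against 0.120 without the covariate. Since the ratio did not overlap between the lineages, its part in the differences and that of the lineage cannot be told apart.

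**Figure D1:**
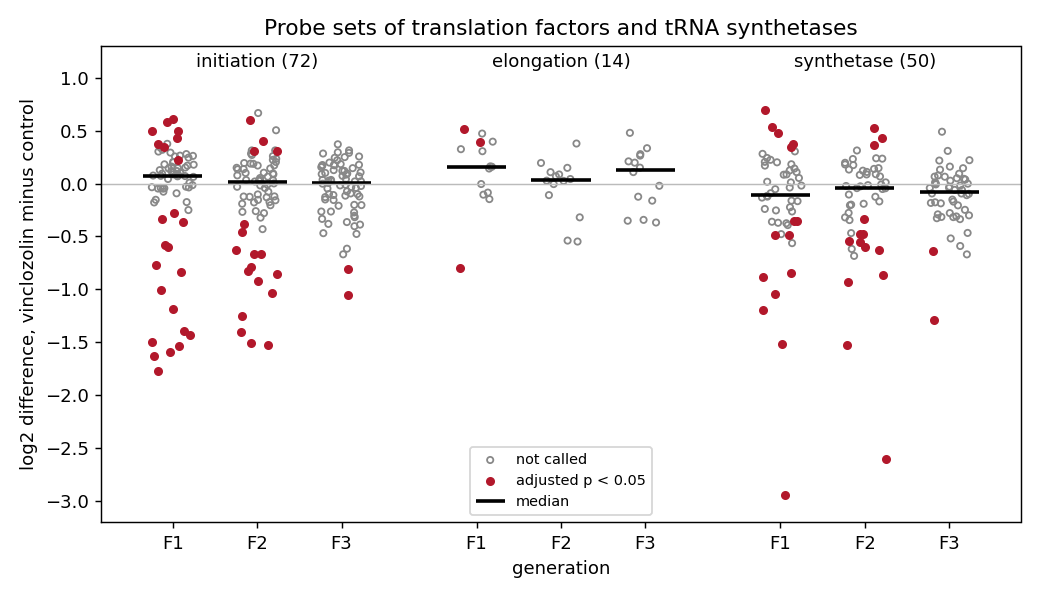
Log2 difference, vinclozolin minus control, of each tested probe set in F1, F2 and F3, for 72 initiation, 14 elongation and 50 synthetase probe sets; red points had an adjusted p under 0.05 and black bars are medians. The medians lay between -0.10 and 0.16 in every column, while the called points of initiation and synthetase genes ran down to -1.77 and -2.94 in F1.

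By role, 24 of 72 initiation probe sets differed in F1 (8 higher and 16 lower), 18 in F2 (4 and 14) and 2 in F3 (both lower). Of 14 elongation probe sets, 3 differed in F1 (2 higher and 1 lower) and none did in F2 or F3 by limma, where 4 and 5 had an unadjusted p under 0.05. Of 50 synthetase probe sets, 15 differed in F1 (5 and 10), 14 in F2 (3 and 11) and 2 in F3 (both lower). In the mean of the generations it was 17 higher and 17 lower for initiation, 5 and 1 for elongation, and 9 and 16 for synthetases. These were 47.2%, 42.9% and 50% of the probe sets of each role, against 33.3% of all (14.1% higher and 19.2% lower). The shares called in F1 were 33.3% of initiation, 21.4% of elongation and 30% of synthetase probe sets, against 23.1% of all. In F2 they were 25%, 0% and 28%, against 14.3% of all, and in F3 2.78%, 0% and 4%, against 3.11% of all. The differences between the roles were not tested.

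The genes that set the supply of initiator tRNA had 1 call in a single generation by limma, and all their calls were higher. In the mean, 33.3% of the eIF2 and 50% of the eIF2B probe sets were called higher, against 14.1% of all probe sets. Eif2s1, Eif2s2 and Eif2s3, the α, β and γ subunits of eIF2, had no call in any single generation by limma (1 probe set in F1, and 0 in F2 and F3, at an unadjusted p under 0.05), with log2 differences of -0.26 to 0.30. Eif2s2 alone was higher in the mean, by 0.17 (adjusted p = 0.0471). The exchange factor eIF2B, which reloads eIF2 with GTP, had 6 tested probe sets of its 5 genes, with differences of 0.07 to 0.29 in F1, 0.03 to 0.40 in F2 and -0.10 to 0.22 in F3. None was called in F1 or F3 by limma (2 and 0 at an unadjusted p under 0.05). Eif2b1, its α subunit, read 388.2 and 501.3 in F1, 458.4 and 496.6 in F2 and 442.3 and 420.3 in F3 vinclozolin testes, against 381.8 and 334.6, 340.3 and 376, and 385.3 and 351.3 in the controls of those generations. All 6 vinclozolin values lay above all 6 control values. It was higher by 0.40 ± 0.12 (SE) in F2 (adjusted p = 0.0355) and by 0.30 ± 0.07 in the mean (adjusted p = 0.00329), where Eif2b3 and Eif2b4 were called higher as well, by 0.17 and 0.19.

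The 4 kinases that phosphorylate eIF2 had no call in a single generation by limma (1 probe set at an unadjusted p under 0.05 in each), with differences of -0.20 to 0.32. In the mean, Eif2ak1 (the heme-regulated kinase, abundant in red cell precursors) was higher by 0.21 at 1374402_at (adjusted p = 0.0184) but not at 1387272_at (0.13, adjusted p = 0.124), beside the higher erythroid marker sums given above. Eif2ak4, the kinase that senses uncharged tRNA, was higher by 0.19 in the mean (adjusted p = 0.0485). Eif2ak2, the kinase activated by double-stranded RNA, and Eif2ak3, that of the endoplasmic reticulum, had mean differences of 0.05 and -0.13, with no call.

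Eif1a, which helps the ribosome scan for the start codon, gave opposite calls from different probe sets. Its brightest, 1374180_at, read 512.2 and 664.7 in F1 vinclozolin testes and 432 and 388.8 in F1 controls, and was higher by 0.49 ± 0.12 (adjusted p = 0.00616). Its probe sets 1395840_at and 1397892_at were lower in F1 (-1.40 ± 0.18 and -1.01 ± 0.16, adjusted p = 8.95e-05 and 0.000487). At 1395840_at the signal was 67.7 and 66.7 in F1 and 103.6 and 60.1 in F2 vinclozolin testes, against 214.1 and 192.5, and 209.7 and 211.1, in the controls. The remaining probe set, 1384147_at, differed by 0.01 in F1 without a call. In F3 the 4 probe sets ran from -0.47 to 0.30 with no call. Among the relatives, Eif1ad was higher in F1 (0.35, adjusted p = 0.0324), and Eif1b had differences of -0.03, 0.03 and 0.03 with no call.

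The eIF3 complex had 17 tested probe sets of 11 subunits: 4 were called higher and 4 lower in F1, 2 and 4 in F2, and 0 and 1 in F3. These were 47.1%, 35.3% and 5.88% of its probe sets, against 23.1%, 14.3% and 3.11% of all. The higher ones in F1 were the brightest or only probe sets of Eif3d, Eif3h, Eif3i and Eif3m, and the lower ones were the dimmer probe sets of Eif3a, Eif3c, Eif3j and Eif3l. Eif3h, a subunit of the outer module of the complex, read 2850.9 and 3404.9 in F1, 2616.1 and 2781.8 in F2 and 2601.6 and 2639 in F3 vinclozolin testes. Its controls read 1996.7 and 2070.4, 2179.3 and 2169.4, and 2076.3 and 2225.5, all below every vinclozolin value. The log2 differences were 0.61 ± 0.09 in F1 (adjusted p = 0.000169), 0.31 in F2 (adjusted p = 0.0262) and 0.28 in F3 (adjusted p = 0.0880). Its dim second probe set, 1397466_at, stayed at 26 or below on every array, had differences of 0.09, 0.67 and 0.37 without a call in a generation, and was higher in the mean (0.38, adjusted p = 0.0325). Eif3d, a subunit that can itself bind an mRNA cap, was higher by 0.22 in F1 and 0.31 in F2 (adjusted p = 0.0356 and 0.0102).

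Eif3a, the large core subunit, shows how far 2 probe sets of a gene could part. At 1379485_at the vinclozolin testes gave 24 and 20.7 in F1, 44.2 and 24.9 in F2 and 50.6 and 44.1 in F3, and the control testes 97 and 108.2, 113.1 and 141.5, and 120 and 111.5. Every vinclozolin value was under every control value, and the differences were -1.63, -1.52 and -1.06 (SE 0.18 each; adjusted p = 2.30e-05, 0.000120 and 0.00546). It was 1 of 3 members called lower in all 3 generations, as were 0.907% of all probe sets. Leaving out the second F3 vinclozolin array or either F3 control array ended its F3 call (differences of -1.13 to -0.98, adjusted p up to 0.0914). At 1389968_at, in contrast, Eif3a read 1238.3 to 1428.2 on vinclozolin arrays and 1278.8 to 1397.9 on control arrays, and its differences of 0.08, -0.03 and -0.11 had no call.

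The same held for Eif3c and Eif3l. Eif3c 1397674_at, a core subunit, was lower in F1 and F2 (-1.43 and -1.41, adjusted p = 4.59e-05 and 0.000158) and at -0.62 in F3 without a call, while 1388378_at differed by 0.12, 0.08 and -0.02 without a call. Eif3l 1390880_at read 294.1 and 194.7 in F1, 373.2 and 381.7 in F2 and 568.7 and 498.3 in F3 vinclozolin testes, and 682.9 and 732, 716.1 and 740.3, and 691.3 and 632.7 in the controls. The gap to the controls was widest in F1 and narrowest in F3 (-1.50 ± 0.14, -0.92 and -0.30), and the F3 value had no call. Its brighter probe set, 1398929_at, also lay below the controls on all 6 arrays, but by only -0.18, -0.08 and -0.10, with no call in a generation or in the mean (adjusted p = 0.0559).

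The cap-binding group (Eif4e, Eif4g1 to Eif4g3, Eif4a1, Eif4a2, Eif4b and Eif4h) held 17 tested probe sets, of which 1 was called higher and 8 lower in F1, 1 and 7 in F2, and 0 and 1 in F3. The shares called were 52.9%, 47.1% and 5.88%, against 23.1%, 14.3% and 3.11% of all probe sets; lower calls made up 13.7%, 9.65% and 2.06% of all. Eif4g1, the main scaffold, had 4 tested probe sets. The dimmest, 1385152_at, gave 1.8 and 7.8 in F1, 11.6 and 15.9 in F2 and 31.9 and 28.4 in F3 vinclozolin testes, against 67 and 43.4, 71.2 and 65.1, and 62.8 and 52.2 in the controls. It was lower in F1 and F2 (-1.77 ± 0.20 and -1.50, adjusted p = 3.13e-05 and 0.000269), with a difference of -0.67 in F3 that was not called. The probe set 1390340_a_at was lower in all 3 generations (-0.60, -0.79 and -0.80, adjusted p = 0.0139, 0.00428 and 0.0151), and leaving out any of the 4 F3 arrays ended the F3 call (adjusted p up to 0.212). The brightest, 1388322_at, and 1395702_at were not called, at -0.03 and 0.26 in F1. Both lower probe sets read under 150 on every array, and the brightest 517.1 to 743.7.

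Eif4g2, a relative of eIF4G that does not bind eIF4E and serves cap-independent initiation, was called in both directions. Its brightest probe set, 1367469_at, had differences of -0.09, -0.02 and 0.03 and no call. At 1388359_at it read 1012.1 and 1019.2 in F1, 1087.8 and 1161.6 in F2 and 849.8 and 825.8 in F3 vinclozolin testes, against 765.2 and 734.9, 745.7 and 723, and 710.2 and 694.1 in the controls. The differences there were 0.43 ± 0.08 and 0.60 in F1 and F2 (adjusted p = 0.00125 and 0.000232) and 0.25 in F3 (adjusted p = 0.0984). At 1397520_at the same arrays gave 440.2 and 336.9, 740 and 565.8, and 903.9 and 854.5 in the vinclozolin lineage, and 1124.5 and 1166.5, 1184.1 and 1139.2, and 1159.2 and 1066.7 in the controls. Here every vinclozolin value lay below every control value, with differences of -1.53 ± 0.13, -0.83 and -0.33 (adjusted p = 3.47e-06, 0.000669 and 0.167).

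The helicase eIF4A2 and the helpers of eIF4A were lower at their dimmer probe sets. Eif4h 1397675_at, of a protein that stimulates eIF4A, was lower in F1 and F2 (-1.59 ± 0.23 and -0.86, adjusted p = 0.000231 and 0.0229), and Eif4h 1367531_at had differences of -0.05, 0.02 and 0.02. Eif4b 1372124_at, of another such helper, was lower as well (-0.37 and -0.46, adjusted p = 0.0204 and 0.00952), and Eif4b 1371404_at was not called. Eif4a2 1397697_at, of the helicase itself, was lower in F1 and F2 (-1.19 and -0.63, adjusted p = 6.35e-05 and 0.0110) and at 0.09 in F3, and Eif4a2 1371642_at was not called. The cap-binding protein Eif4e was lower in F1 at both tested probe sets (-0.27 at 1398799_at and -0.77 at 1386997_at, adjusted p = 0.0306 and 0.00677). Eif4enif1, which carries eIF4E into the nucleus and has 1 probe set, was lower in F1 and F2 (-0.58 and -0.38, adjusted p = 0.00254 and 0.0422): its vinclozolin values of 293.5 to 451.3 all lay below its control values of 493.6 to 586.7. The repressors of eIF4E had no call in a generation by limma (0, 0 and 2 at an unadjusted p under 0.05 in F1, F2 and F3). In the mean, Eif4ebp1 was higher by 0.20 and Eif4ebp2 lower at -0.19 (adjusted p = 0.0298 and 0.0230).

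Among the remaining initiation genes, Eif5a, the hypusine-bearing factor that helps stalled ribosomes along, was lower in F1 (-0.34, adjusted p = 0.00718), with 1656.8 and 1864.9 in vinclozolin testes against 2160.6 and 2294 in controls. It was at -0.10 and 0.03 in F2 and F3. Eif6, which keeps the ribosomal subunits apart, and Eif5b, which joins them, had no call in a generation.

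The 3 elongation calls in F1 were 21.4% of that group, near the 23.1% of all probe sets. The exchange factors of eEF1 were on the higher side: Eef1b2, the β subunit that recharges eEF1A with GTP, read 5132.9 and 5976.8 in F1, 4496.7 and 5014.6 in F2 and 4756.8 and 4695.8 in F3 vinclozolin testes. In controls it read 3823.4 and 3897.6, 4155.8 and 4140.1, and 3905.3 and 3961.8. All 6 vinclozolin values stood above all 6 controls, and the difference was 0.52 ± 0.08 in F1 (adjusted p = 0.000388), 0.19 in F2 and 0.26 in F3 (adjusted p = 0.127 and 0.0915). Eef1d, the δ subunit, was higher by 0.39 ± 0.09 in F1 (adjusted p = 0.00722) and at 0.15 in both F2 and F3 without a call. Both sizes moved with the scaling. Under quantile normalization, median centring and cyclic loess the F1 difference ran from 0.26 to 0.64 for Eef1b2 and from 0.23 to 0.51 for Eef1d, each still called. The F3 difference of Eef1b2 ran from 0.08 to 0.32. The mean difference of Eef1d, 0.23 and called, had no call under cyclic loess. Leaving out either F1 control array ended the F1 call of Eef1d (adjusted p up to 0.0563). The plot of higher members shows both genes beside Eif3h and Fars2.

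**Figure D2:**
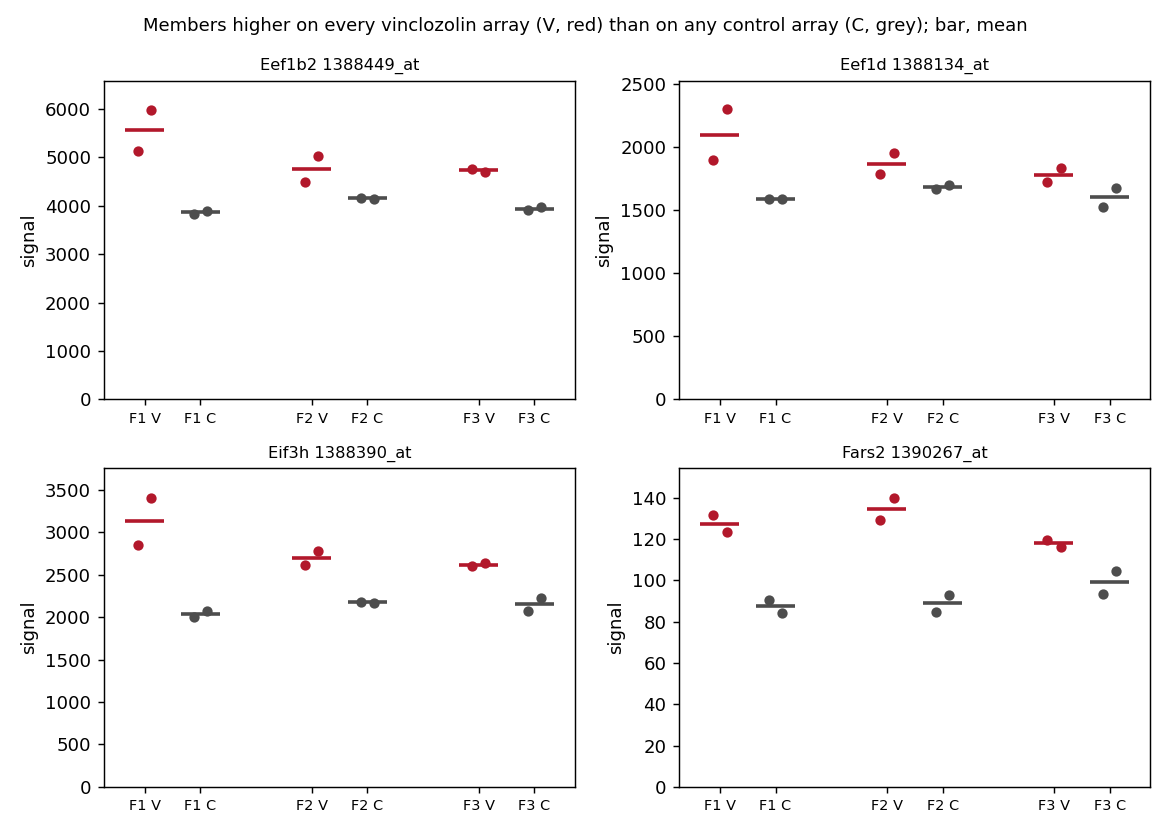
Signal on each array (linear axis from 0) of Eef1b2, Eef1d, Eif3h and Fars2, by generation, with vinclozolin (V, red) left of control (C, grey) and bars at the mean of 2 arrays. In each panel all 6 red points lie above all 6 grey points; for Eef1b2 the F1 pair stood at 5132.9 and 5976.8, against 3823.4 and 3897.6.

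Eef1a1, which carries aminoacyl-tRNA to the ribosome, was among the brightest probe sets of the array and moved little. At 1388110_at it read 5221.6 to 6210.3 on vinclozolin arrays and 4765.1 to 6255.7 on control arrays, which overlapped. Its mean difference of 0.15 (adjusted p = 0.0460) turned to -0.0706 after quantile normalization and to -0.0265 after cyclic loess, both without a call, and its second probe set, 1370109_s_at, gave 0.12 (adjusted p = 0.0369). Eef1g, the γ subunit, was lower in F1 at 1394744_at (-0.80 ± 0.22, adjusted p = 0.0179), where 72.8 and 38.5 in vinclozolin testes stood against 98.3 and 112.2 in controls. This call ended without the second F1 vinclozolin array or either F1 control array (differences of -1.15 to -0.45, adjusted p up to 0.195), and the bright probe set of Eef1g, 1388297_at, had a difference of -0.0047 in F1. Eef2, the translocase, had differences of -0.12 to 0.07 and no call. Eef1akmt1, a methyltransferase of eEF1A, was higher on all 6 vinclozolin arrays (131.7 to 170.1, against 103.6 to 125) and called in the mean alone, at 0.39 ± 0.08 (adjusted p = 0.00162). Eef2k, the kinase that inhibits eEF2, was lower in the mean at 1389999_at (-0.35, adjusted p = 0.0433), a call that was absent under each of the 3 other scalings, and its other 2 probe sets had mean differences of 0.08 and -0.03.

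The synthetases were counted by compartment. The cytosolic enzymes (symbols ending ars1, and Eprs1; Gars1 and Kars1 serve both compartments) had 30 tested probe sets of 17 genes, with 2 called higher and 9 lower in F1, 1 and 7 in F2, and 0 and 2 in F3. The mitochondrial ones had 17 probe sets of 14 genes, with 3 and 1 in F1, 2 and 3 in F2, and none in F3 by limma (3 at an unadjusted p under 0.05). Of the cytosolic probe sets 36.7% were called in F1 and 26.7% in F2, and of the mitochondrial ones 23.5% and 29.4%, against 23.1% and 14.3% of all probe sets. The difference between the compartments was not tested.

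Atf4 binds, with its partners of the C/EBP family, to a composite element whose core was searched here as TGATGNAA on both strands, in RefSeq promoters of the GRCr8 assembly from 250 bases before to 50 after the gene start. Of the 92 genes, 85 had such a promoter. The element was present in 7 of 15 cytosolic synthetase promoters (46.7%), in 0 of 14 mitochondrial, 1 of 44 initiation and 0 of 10 elongation promoters, and in 3.98% of all 33469 promoters. A match of letters is not a bound site. The windows of 3 synthetases and of Eif2s2, the only initiation gene with a match, are shown as examples of the matches. The element or its reverse complement is in capitals, read along the gene's own strand.
Mars1 (chr7:65023752-65023781, minus strand): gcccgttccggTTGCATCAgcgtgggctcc
Tars1 (chr2:62114811-62114840, minus strand): ctggcgtcccgTTGCATCAgctggttagct
Iars1 (chr17:15193658-15193687, minus strand): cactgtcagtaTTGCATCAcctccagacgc
Eif2s2 (chr3:163855588-163855617, minus strand): ttccctttcgcTGATGCAAgagcctagcgc

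The 7 genes with the element (Aars1, Cars1, Iars1, Mars1, Nars1, Tars1 and Yars1) did not move as a block. At their brightest probe sets, F1 differences ran from -0.35 for Iars1 and Nars1 (adjusted p = 0.0479 for each) to 0.22 for Mars1 (adjusted p = 0.0792). Aars1, Tars1 and Yars1 had no call in any generation or in the mean.

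Eprs1, the enzyme that charges both glutamyl- and prolyl-tRNA, had the lowest value of any member. At 1382040_at it read 16.5 and 20.1 in F1, 51.1 and 29.1 in F2 and 95.8 and 89.6 in F3 vinclozolin testes, against 199.6 and 304.5, 322 and 315.6, and 247.9 and 251.6 in the controls. No vinclozolin array reached the lowest control, and the vinclozolin level was lowest in F1 and highest in F3. The means in F1 were 18.3 ± 2.55 and 252.0 ± 74.2 (SD, n = 2 each). The log2 differences were -2.94, -2.61 and -1.29 (SE 0.19 each), with adjusted p = 4.46e-07, 2.69e-06 and 0.00212. The other probe sets of Eprs1 did not show this: 1373418_at differed by 0.14, 0.09 and 0.00 with no call. The brightest, 1383455_at, differed by 0.02 and -0.21 in F1 and F2 and was lower in F3 (-0.64 ± 0.13, adjusted p = 0.0207), with 547.4 and 619.9 in vinclozolin testes against 889.8 and 941.2 in controls. That F3 call ended when any of the 4 F3 arrays was left out (adjusted p up to 0.186).

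Mars1, the methionyl enzyme, repeated the split. Its probe set 1395363_at read 43 and 23.1 in F1, 46.2 and 32.7 in F2 and 85.7 and 83.8 in F3 vinclozolin testes, against 112.3 and 130.9, 131.8 and 154.7, and 151.3 and 121.5 in the controls. All 6 vinclozolin values were below all controls, with differences of -1.52 ± 0.19, -1.53 and -0.59 (adjusted p = 6.40e-05, 0.000166 and 0.103). At 1389733_at, with signals of 613.9 or more on every array, the differences were 0.22, 0.24 and 0.04 without a call in a generation, and the mean, 0.17, was called higher (adjusted p = 0.0193).

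Hars1, the histidyl enzyme, was lower at both of its tested probe sets. At 1395533_at the vinclozolin testes gave 92.5 and 90.7 in F1, 124.4 and 105.2 in F2 and 180.9 and 155.4 in F3, and the controls 233.5 and 228.3, 226.8 and 237.4, and 218.1 and 211. At 1376468_at they gave 136.3 and 132.2, 126.7 and 158.8, and 168.2 and 163.7, against 198.9 and 189.3, 219.6 and 209.6, and 197.7 and 219 in the controls. Neither probe set had an overlap between the lineages. The first differed by -1.20 ± 0.11, -0.93 and -0.33 and the second by -0.48, -0.55 and -0.30, with calls in F1 and F2 at both (adjusted p = 8.38e-06 and 0.000166, and 0.00779 and 0.00639) and none in F3.

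Gars1 1395730_at (glycyl), Cars1 1391572_at (cysteinyl) and Wars1 1395124_at (tryptophanyl) were lower in F1, at -1.04 ± 0.18, -0.88 ± 0.17 and -0.84 ± 0.14 (adjusted p = 0.000745, 0.00180 and 0.000648). All 3 were also called in F2, at -0.87, -0.63 and -0.60, and none in F3. Each of the F2 calls ended without the second F2 vinclozolin array. That of Cars1 also ended without either F2 control array, and that of Wars1 without the first F2 control array. Over all left-out arrays the F2 differences ran from -0.91 to -0.83, from -0.79 to -0.47 and from -0.715 to -0.491. The brightest probe sets of these genes had F1 differences of 0.11, 0.17 and 0.18 with no call, and Cars1 1374034_at was higher in F2 (0.37, adjusted p = 0.0459). The remaining Cars1 probe sets, 1376754_at and 1394970_at, had F1 differences of -0.24 and -0.17 and no call. Rars1 and Lars1, the arginyl and leucyl enzymes, were the cytosolic synthetases called higher in F1, by 0.37 and 0.34 (adjusted p = 0.0186 and 0.0133).

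Of the mitochondrial synthetases, Fars2, which charges mitochondrial phenylalanyl-tRNA, was the one above its controls on all arrays. It read 131.7 and 123.1 in F1, 129.1 and 139.9 in F2 and 119.5 and 116.3 in F3 vinclozolin testes, against 90.4 and 84.2, 84.7 and 92.9, and 93.5 and 104.6 in the controls. It was higher by 0.47 ± 0.12 in F1 and 0.52 in F2 (adjusted p = 0.0102 and 0.00956), with 0.22 in F3. Nars2, the asparaginyl enzyme, was higher in F1 (0.69 ± 0.15, adjusted p = 0.00418), where its 2 arrays read 266 and 380.2 against 210.2 and 173.5 in controls. Iars2, the isoleucyl enzyme, was lower in F1 and F2 (-0.49 and -0.48, adjusted p = 0.0243 and 0.0399). Tars2, the threonyl enzyme, was called in both directions in the mean: -0.64 ± 0.16 at 1375753_at and 0.25 at 1373760_at (adjusted p = 0.00537 and 0.0143).

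The scaffold proteins Aimp1, Aimp2 and Eef1e1, which hold part of the cytosolic enzymes in a complex, had 4 tested probe sets. Of these, 1 was called in a single generation, in F2 (25%, against 14.3% of all probe sets). In the mean, 2 were called higher and 1 lower (75%, against 33.3% of all). Aimp1 1379810_at was lower in F2 (-0.55, adjusted p = 0.00311), while Aimp1 1374279_at lay above the controls on all 6 vinclozolin arrays and was higher in the mean (0.19, adjusted p = 0.0178).

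The split between probe sets of 1 gene was general. Of the 91 tested genes, 35 had several tested probe sets. Among the brightest of each of these, limma called 4 higher and 3 lower in F1, and none of them was lower by over 2-fold. Among the 45 other probe sets of the same 35 genes it called 1 higher and 20 lower, 13 of them by over 2-fold, as were 3.19% of all probe sets. In F2 the counts were 3 higher and 1 lower for the brightest, and 1 and 20 for the others, 7 of these by over 2-fold. In F3 they were 0 and 1, and 0 and 3. The 56 genes with a single tested probe set had 10 calls higher and 4 lower in F1, none of the lower ones by over 2-fold. Thus all 13 members called lower by over 2-fold in F1, among them Eprs1 1382040_at, Eif4g1 1385152_at and Eif3a 1379485_at, were probe sets of a gene that had a brighter one. All probe sets of the array showed the same division: among 3269 genes with several, the brightest (22.9% called) had 393 calls higher and 356 lower in F1, and the 4488 others (35.8% called) 183 and 1424. Among the members the shares called were 20% of the brightest and 46.7% of the others, and whether they differ from those of all genes was not tested.

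**Figure D3:**
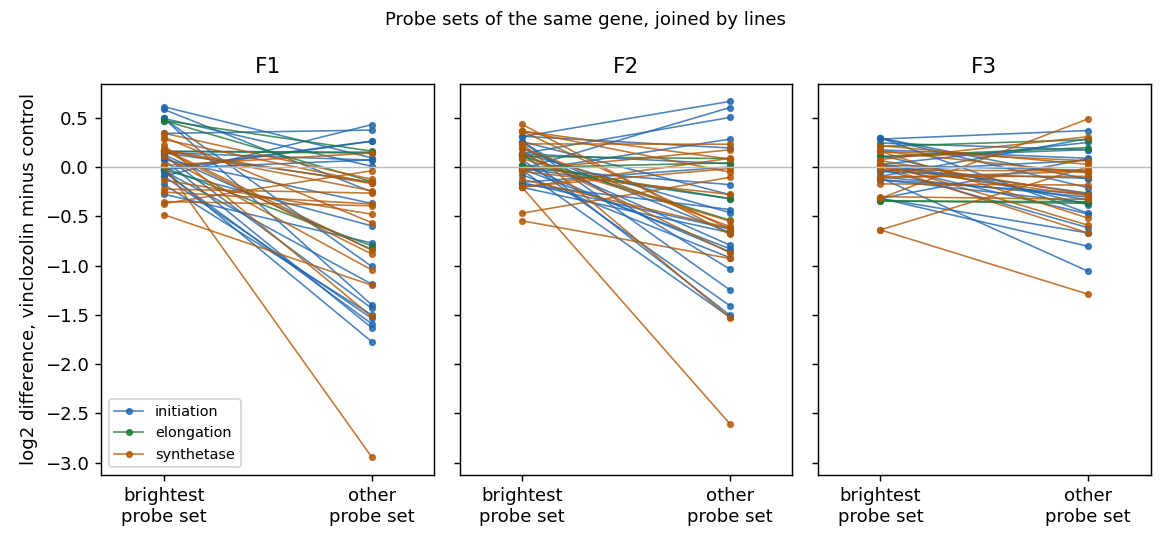
Log2 difference, vinclozolin minus control, of the brightest tested probe set of each of 35 genes (left of each panel) joined to that of each of its 45 other probe sets (right), for F1, F2 and F3. The other probe set lay below the brightest in 38, 35 and 32 of 45 pairs, and by over 1 log2 unit in 14, 9 and 0.

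The counts were also taken with the brightest probe set chosen without the vinclozolin arrays. Ranked by the control arrays alone, the brightest had 4 calls higher and 3 lower in F1 and the others 1 and 20, and 12 of the 13 lower by over 2-fold were among the others. The exception was Hars1 1395533_at. In all, 6 genes had probe sets called in opposite directions in at least 1 comparison: Eif1a and Eif4g2 in F1, Eif4g2 and Cars1 in F2, and Aimp1, Cars1, Eif1a, Eif4g2, Mars1 and Tars2 in the mean. At the brightest probe set of each of the 91 genes, 14 were called higher and 7 lower in F1 (23.1% in all), against 1264 and 1014 of 11293 genes (20.2%). Where in each transcript a probe set lies was not used here, so the part of the beta-actin 5′ to 3′ gradient in this division was not tested.

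**Figure D4:**
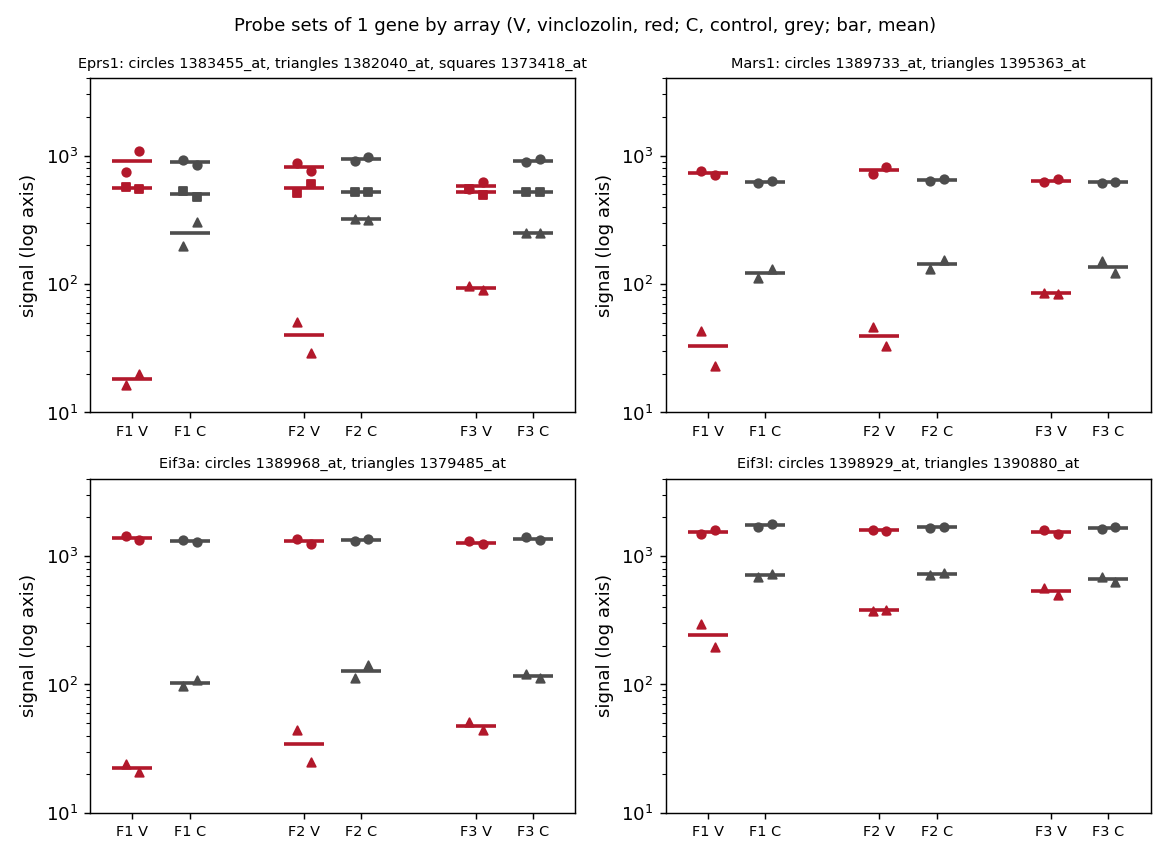
Signal on each array (log axis) of all tested probe sets of Eprs1, Mars1, Eif3a and Eif3l, by generation, with vinclozolin (V, red) left of control (C, grey) and bars at the mean of 2 arrays; circles mark the brightest probe set, triangles the one with the lowest F1 difference and squares the third of Eprs1. The red triangles lie below every grey triangle of the same gene, for Eprs1 at 16.5 and 20.1 in F1 vinclozolin testes against 199.6 and 304.5 in controls, and the brightest probe set of Eprs1 was lower in F3, at 547.4 and 619.9 in vinclozolin testes against 889.8 and 941.2 in controls.

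Whether a difference depended on generation was tested in the same fit. It did for 6 members (F test over the 3 differences; 2.6% of all probe sets): Eif4g2 1397520_at, Eprs1 1382040_at, Eif3l 1390880_at, Eif4a2 1397697_at, Hars1 1395533_at and Ears2 1385318_at. The count was not stable: limma called 0 with eBayes without trend, 0 with the beta-actin covariate and 14 with array weights, and 0 without the second F3 control array but 39 without the first F1 vinclozolin array. Without single other arrays it was 1 to 14. In the first 5 the vinclozolin lineage was further below the controls in F1 than in F3, at -1.20 ± 0.18 for Eif4g2, -1.65 ± 0.26 for Eprs1, -1.20 ± 0.20 for Eif3l, -1.28 ± 0.21 for Eif4a2 and -0.87 ± 0.16 for Hars1 (F1 difference minus F3 difference, adjusted p = 0.00234 to 0.00717). Ears2, the mitochondrial glutamyl enzyme, went the other way, at 100.2 and 98.2 in F1 vinclozolin testes against 62.1 and 65.1 in controls, but 54.4 and 66.4 in F3 vinclozolin testes against 76.4 and 72.6 in controls. Its F1 minus F3 value was 0.78 ± 0.20 (adjusted p = 0.0343). F1 and F3 differed in 8 members (4.42% of all probe sets), the further 2 being Eif4g1 1385152_at (-1.10) and Nars2 (0.90). F2 and F3 differed in 1, Eprs1 1382040_at (-1.32 ± 0.26, adjusted p = 0.0414; 0.515% of all), and F1 and F2 in none by limma (0.0322% of all; 17 members had an unadjusted p under 0.05). The beta-actin ratio of the vinclozolin arrays followed the same order, with 0.171, 0.233 and 0.378 in F1, F2 and F3, and its part in the dependence on generation was not tested. The control groups of the 3 generations did not differ in any of the 136 members by limma, nor in any of all 21729 tested probe sets (0%). An unadjusted p under 0.05 was found for 5 of the 136 members and for 517 of the 21729.

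Genes that act beside these factors were read from lists. Release factors, recycling factors and mRNA-binding proteins of translation had 21 tested probe sets, of which 1 was called higher and 7 lower in F1, 3 and 2 in F2, and 1 and 1 in F3 (38.1%, 23.8% and 9.52%, against 23.1%, 14.3% and 3.11% of all). Pabpc4, a poly(A)-binding protein, led them at 1382443_at: 112 and 56.4 in F1, 139.1 and 114.4 in F2 and 209.1 and 167.8 in F3 vinclozolin testes, against 384.5 and 358.6, 394.6 and 392.8, and 370.4 and 335.1 in the controls. It was lower in all 3 generations, at -2.01, -1.53 and -0.86. The brighter probe set of Pabpc4, 1371777_at, was called lower in F1 (-0.80, adjusted p = 0.00418) and in the mean (-0.46, adjusted p = 0.00250), and not in F2 or F3. There the vinclozolin values of 562.4 to 1035.7 all lay below the control values of 1092.1 to 1340.9. Denr, a recycling factor, was lower in F1 and F2 at 1391644_at (-1.02 and -0.96) and had no call at 1372764_at.

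The mTOR arm, which sets the rate of cap-dependent initiation, had 25 tested probe sets with 0 higher and 8 lower in both F1 and F2 and no call in F3 by limma (9 at an unadjusted p under 0.05). The share called was 32% in F1 and in F2, against 23.1% and 14.3% of all probe sets. Pdcd4 encodes an inhibitor of eIF4A. Pdcd4 1383327_at read 236.6 and 171.7 in F1 and 289 and 274.3 in F2 vinclozolin testes, against 600 and 582, and 608 and 629.1 in the controls, with differences of -1.48 and -1.09. Pdcd4 1387521_at and 1383328_x_at were lower alike. Its brightest probe set, 1383326_a_at, was called lower in F2 (-0.47) and in the mean (-0.30, adjusted p = 0.00110), and not in F1 or F3. Pdcd4 1383329_at had no call in a generation and was higher in the mean (0.35, adjusted p = 0.0260). Akt1s1, an inhibitor of mTORC1, was lower in F1 at both tested probe sets (-1.14 and -0.48), and Tsc1, another brake on mTORC1, was lower in F1 and F2 at 1369362_at (-0.77 and -1.03) and not at 1389776_at. Rps6kb1, the S6 kinase activated by mTORC1, was lower in F1 and F2 at 1368116_a_at (-0.59 and -0.51, adjusted p = 0.0161 and 0.0460), and at 1398396_at it had no call in a generation and was higher in the mean (0.25, adjusted p = 0.0242). Mtor and Rptor themselves had no call.

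Of 27 probe sets of the integrated stress response, 3 were called higher and 1 lower in F1, 2 and 2 in F2, and none in F3 by limma (5 at an unadjusted p under 0.05). The share called was 14.8% in F1 and in F2, against 23.1% and 14.3% of all probe sets. Ddit3, the stress-induced factor CHOP, read 82.1 and 100.8 in F1, 78.9 and 100.8 in F2 and 71.6 and 64.3 in F3 vinclozolin testes, against 51.4 and 48.8, 48.2 and 58.6, and 49.5 and 42.2 in the controls. It was above the controls on all 6 arrays and higher by 0.70 in F1 and 0.61 in F2. Nupr1, a stress-induced cofactor, was higher in F1 (0.60), as was Psat1, an enzyme of serine synthesis and a target of Atf4 (0.44, adjusted p = 0.00492; 0.28 in the mean, adjusted p = 0.00186). Slc7a5, a transporter of large neutral amino acids, was lower in F2 (-0.82), and Cebpg, a partner of Atf4, was lower at 1371038_at (-1.11 and -0.62 in F1 and F2) but not at the brighter 1372885_at. Atf4 itself was higher in the mean alone (0.15, adjusted p = 0.0245), and Asns, asparagine synthetase and another of its targets, had no call.

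Mitochondrial translation factors (12 probe sets) had 3 calls higher and 2 lower in F1, 0 and 2 in F2, and none in F3 by limma (1 at an unadjusted p under 0.05). The shares in F1 and F2 were 41.7% and 16.7%, against 23.1% and 14.3% of all. Mtif2, the mitochondrial initiation factor, was higher in F1 (0.60), and Tsfm, the exchange factor of mitochondrial elongation, was lower in F1 and F2 (-0.58 and -0.38). Tufm, the mitochondrial elongation factor, was higher at its brightest probe set and lower at 1395719_at in F1 (0.24 and -0.76), the division seen above. Farsa and Farsb, the subunits of the cytosolic phenylalanyl enzyme, whose symbols fall outside the pattern, were called in opposite directions in F1 (-0.52 and 0.38).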

How the data were processed

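Total RNA was labelled with biotin and hybridised to Affymetrix rat arrays, per the labels' protocols, after Trizol extraction from pools of about 10 testes. The values deposited by the authors were signal intensity on a linear scale, 1 value per probe set; the software behind them is not given in the sources used here. A 2% trimmed mean near 125.03 on every array shows a global scaling. Values were taken as log2(value + 16), which understates the changes of dim probe sets. Array medians spanned 0.157 log2 units, so no further normalization was applied. Affymetrix controls (57 of 31099 probe sets) and the lowest 30% by mean (dimmer than 14.8) were set aside, and the other 21729 probe sets were fitted with limma 3.58.1 in R 4.3.3 (6 group means over all 12 arrays, eBayes with trend, 6 residual and 8.97 prior degrees of freedom). A difference was called at a Benjamini-Hochberg adjusted p under 0.05 over all tested probe sets. Log2 differences are vinclozolin minus control, with the model's SE. With 2 arrays against 2, an exact permutation test cannot go below p = 0.333. Precision was limited by the number of arrays and by the spread between replicate pools, which was larger in the vinclozolin lineage. Symbols came from the platform annotation (20837 probe sets with 1 symbol, 425 with several, 9780 with none). The fit was run on simulated data in which each probe set had the same spread in all groups. That run does not cover the wider spread of the vinclozolin arrays.

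In each gene group and comparison, up to 6 called probe sets without overlap between lineages were named by size of difference, or else the 2 with the smallest p, with the other probe sets of the gene; complexes and pathway lists were described by counts, with up to 3 called probe sets a list. Further genes named were chosen after their values were seen. The members, lists and tests were chosen with earlier results of these data known. Replicate numbers did not pair the arrays: deviations of same-numbered arrays correlated between -0.0932 and 0.0678. Alternatives covered scaling, pseudocount, filter, probe set choice, spread, block, covariate and left-out arrays.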

Additional observations from a re-analysis of the deposited data

Results flagged for a closer look

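In 6 members the lineage difference depended on generation by limma's F test of the interaction, adjusted over all tested probe sets. The adjusted p was 0.00786 for Eif4g2 1397520_at, 0.00816 for Eprs1 1382040_at, 0.0126 for Eif3l 1390880_at, 0.0126 for Eif4a2 1397697_at, 0.0207 for Hars1 1395533_at and 0.0385 for Ears2 1385318_at. The first 5 had differences in F1 and F3 of -1.53 and -0.33, -2.94 and -1.29, -1.50 and -0.30, -1.19 and 0.09, and -1.20 and -0.33. Ears2 had 0.53 and -0.25. Over all members 36 of 136 had an unadjusted p under 0.05 in this test. Groups of 2 arrays are too small for a test of outlying arrays.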

How the results depend on the processing

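Of 52 values of named members, 38 kept direction and call under each of the 22 to 26 alternatives that could be run for them, other than the beta-actin covariate. The fit of the brightest probe set of each gene held 9 of the 52. The number of members called was 42 in F1, 32 in F2, 4 in F3 and 65 in the mean. With the replicate block these were 42, 30, 4 and 66, and as the numbers did not pair the arrays the block is given only here. With the brightest probe set of each gene refitted alone they were 19, 8, 1 and 35 of 91 (20.9%, 8.79%, 1.1% and 38.5%). Of all genes in that fit 19.4%, 9.49%, 2.6% and 30.7% were called. The dependence on generation then had 0 in place of 6. With the beta-actin ratio as covariate the members called were 0, 0, 2 and 0 (0%, 0%, 1.14% and 0% of all), and 0 for the dependence on generation. Array weights gave 31 in F3 (22.8%, against 12.5% of all) and 14 for the dependence on generation. Without trend, eBayes gave 0 for the dependence on generation. Fits of a generation's own 4 arrays gave 21 in F1 and 27 in F3 (15.4% and 19.9%, against 10.6% and 10.4% of all). The mean without F1 had 38 and without F2 43 (27.9% and 31.6%, against 18.8% and 23.4% of all). Leaving out single arrays gave 24 to 60 in F1, 14 to 50 in F2, 1 to 26 in F3, 45 to 79 in the mean, 0 to 39 for the dependence on generation and 0 to 0 among controls. The lone array left in a group was then assumed to vary like the others. In each generation and in the mean, the share called of all probe sets was likewise lower or higher at these extremes. The ranges of F1, F2, F3 and the mean are thus not particular to the members. Eef1a1 1388110_at in the mean reversed to -0.0706 by quantile normalization and -0.0265 by cyclic loess. With the covariate, these values changed sign: in F1, Eif4h 1.46, Eif3l 0.14, Eef1g 1.32, Eef1b2 -0.22, Eef1d -0.56, Mars1 0.77, Gars1 0.99, Cars1 1.12 and Wars1 0.25. In F2 they were Eif3l 0.15, Gars1 0.46, Cars1 0.68 and Wars1 0.11. In the mean they were Eif4h 0.89, Eif3l 0.10, Eef1akmt1 -0.11, Eef1b2 -0.13, Eef1d -0.35, Eef1a1 -0.46, Mars1 0.19, Gars1 0.51, Cars1 0.55 and Tars2 1.38. None of these was called (adjusted p of 0.396 to 0.944). The cause was not tested in any of these cases. For the signal over background no detection calls were used, and pooled RNA and 2 arrays a group limited the precision.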
